A study of Mus musculus with 8 samples.

Results

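The mouse stefin A genes form a cluster of closely related copies on chromosome 16. Of 7 symbols considered, Stfa1, Stfa2, Stfa2l1, Stfa3, BC100530 and Gm5483 were present among the 34199 genes counted, and the seventh, BC117090, was not analysed here. The members were chosen by name with earlier results of these libraries in view, in which Stfa2 and Stfa2l1 stood among the genes with the highest fitted increases after HOXA9 was switched off. Levels in HOXA9 OFF cells are therefore given as a description. Counts of members called against HOXA9 OFF cells are printed beside the share of all genes, with no p-value, and nothing is read from them; FDR values for members are given only in comparisons among the other groups.

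Stefins are small cystatins that act inside the cell, where they bind and block papain-like cysteine proteases such as cathepsins B, H, L and S. Unlike most other cystatins they are made without a signal peptide. In the mouse the stefin A gene has been duplicated several times, and stefin A transcripts are a known feature of maturing neutrophils, while the human gene is best known from the epidermis and white blood cells.

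Bulk RNA sequencing was made on immortalised granulocyte-macrophage progenitors (iGMPs) from C57Bl/6 mice, a blood progenitor that gives rise to neutrophils and macrophages. All 4 groups carried HOXA9 fused to the hormone-binding domain of the estrogen receptor (ER-HOXA9), which holds the cells in self-renewal while estradiol is present, and a GFP reporter under the lysozyme promoter. All were grown with stem cell factor, and each group had 2 libraries. The uninduced group was harvested at 0 h with estradiol at 150 ng/ml. For CAF-1 OFF, 500 µM IPTG was present for 48 h and switched on an shRNA against Chaf1b, a subunit of the histone chaperone CAF-1. The IPTG-treated control also had 48 h of IPTG, but the labels do not say which vector or clone it carried. Estradiol stayed in the medium of both. HOXA9 OFF cells spent 48 h without estradiol. The lines were clonal, so differences between clones cannot be told apart from treatment where the clones differ. The labels do not say whether replicates came from separate cultures. Independent sub-clones are spoken of in the supplement for transcript tracks at Hoxa9, but no label ties a replicate number to one, so the p-values measure the spread between these libraries, which may be technical.

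Gene counts totalled from 14044284 to 22423837 per library. Levels are given as CPM, counts scaled to a fixed library total. Chaf1b stood at 96.8 and 100 CPM in the uninduced libraries, 95.1 and 102 CPM with IPTG in control cells, and 18.7 and 9.72 CPM under CAF-1 OFF. It was also lower in HOXA9 OFF than in uninduced cells, at 48.3 and 41 CPM (log2 -1.14 ± 0.25 SE, FDR 0.00574, edgeR). For Hoxa9, the counts do not separate reads of the gene from those of the fusion transgene. The paper's tracks lacked coverage at the untranslated ends of Hoxa9, which it takes to mean that the transgene alone was expressed. Uninduced libraries held 234 and 235 CPM and HOXA9 OFF libraries 481 and 450 CPM, and RNA does not report on the hormone-controlled protein. The summed level of 7 progenitor markers lay between 10700 and 15800 CPM in the groups with active HOXA9 and between 5570 and 7560 CPM in HOXA9 OFF cells. Of the 7, 4 were called lower in HOXA9 OFF than in uninduced cells, where 22.1% of all tested genes were. Mpo (log2 -0.76), Elane (log2 0.70) and Prtn3 (log2 0.43) were not called. IPTG-treated control replicate 1 had 14.6% of its reads outside genes, against 5.3% to 7.79% in the other libraries.

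The members lay within 299 kb, chr16:36156897-36455478 in mm9. From the proximal end they were Stfa2l1 (chr16:36156897-36162034, plus strand), Gm5483 (chr16:36184298-36188197, plus), Stfa1 (chr16:36277213-36285457, plus), BC100530 (chr16:36359468-36367834, minus), Stfa2 (chr16:36404037-36421006, minus) and Stfa3 (chr16:36450623-36455478, minus). Stfa1, BC100530 and Gm5483 encode proteins of 97 residues, and Stfa2, Stfa2l1 and Stfa3 proteins of 103 residues. The final 60 coding bases of each, stop codon included, are shown from the mm9 transcripts (GENCODE vM1) because they show at sight which copies are nearly the same. Capitals mark bases that differ from the most frequent base of the 6 genes at that position. At a tie, the base first in alphabetical order was taken as the most frequent.
Stfa1: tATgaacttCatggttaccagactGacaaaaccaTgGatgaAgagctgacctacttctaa
Stfa2: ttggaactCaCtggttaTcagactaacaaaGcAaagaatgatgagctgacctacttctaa
Stfa2l1: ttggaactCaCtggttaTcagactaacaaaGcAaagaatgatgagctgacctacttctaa
Stfa3: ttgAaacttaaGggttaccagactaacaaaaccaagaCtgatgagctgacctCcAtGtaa
BC100530: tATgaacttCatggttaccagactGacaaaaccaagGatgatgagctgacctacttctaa
Gm5483: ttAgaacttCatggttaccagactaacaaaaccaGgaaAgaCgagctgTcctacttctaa
Stfa2 and Stfa2l1 were identical over this stretch and shared 96.5% of their whole coding sequence. Stfa1 and BC100530 differed at 2 of the 60 bases and shared 98% of the coding sequence and 94.8% of the protein sequence. All other pairs shared between 73.4% and 81.7% of coding bases.

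This likeness bears on every count below, because the authors' counting left out reads that aligned to more than 1 place. Of the 50-base windows of each transcript, 100% were found in no other protein-coding gene for Stfa3, 85.3% for Stfa2, 75.1% for Stfa2l1, 67.5% for BC100530, 65.8% for Gm5483 and 62.3% for Stfa1. Stfa1 shared 125 windows with BC100530, and Gm5483 shared 125 with 2010005H15Rik, a stefin-like gene of the same cluster that is not a member. Reads from shared stretches are lost rather than assigned to a copy, so single-copy levels are uncertain, and the sum over the 6 genes is given beside them. BC100530 also overlaps Gm15845 on the opposite strand, and whether counting used the strand is not given in the sources used here.

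Summed over the 6 genes, uninduced libraries had 64 and 31 counts, IPTG-treated controls 29 and 13, CAF-1 OFF libraries 214 and 525, and HOXA9 OFF libraries 61779 and 38758. Scaled to library size this was 2.85 and 1.33 CPM, 2.05 and 0.797 CPM, 11.3 and 27.4 CPM, and 3350 and 1920 CPM, in the same order. Both control groups overlapped, both CAF-1 OFF libraries lay above all 4 control libraries, and both HOXA9 OFF libraries lay far above the CAF-1 OFF libraries. The mean sum was 2640 ± 1010 CPM (SD, n = 2) in HOXA9 OFF cells and 2.09 ± 1.08 CPM (SD, n = 2) in uninduced cells, a 1260-fold ratio. In CAF-1 OFF cells it was 19.4 ± 11.4 CPM (SD, n = 2), 9.27-fold the uninduced mean and 13.6-fold the IPTG-treated control mean of 1.42 ± 0.885 CPM (SD, n = 2). Single libraries moved these ratios. The HOXA9 OFF ratio was 1990 without uninduced replicate 1. The CAF-1 OFF ratio to uninduced cells was 5.4 without CAF-1 OFF replicate 2 and 14.6 without uninduced replicate 1, and the ratio to IPTG-treated control cells was 7.92 without CAF-1 OFF replicate 2 and 24.3 without IPTG-treated control replicate 1. In bulk libraries, fewer cells that express a gene and less of its RNA per cell cannot be told apart, so neither the number of expressing cells nor their level is known from these sums.

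**Figure D1:**
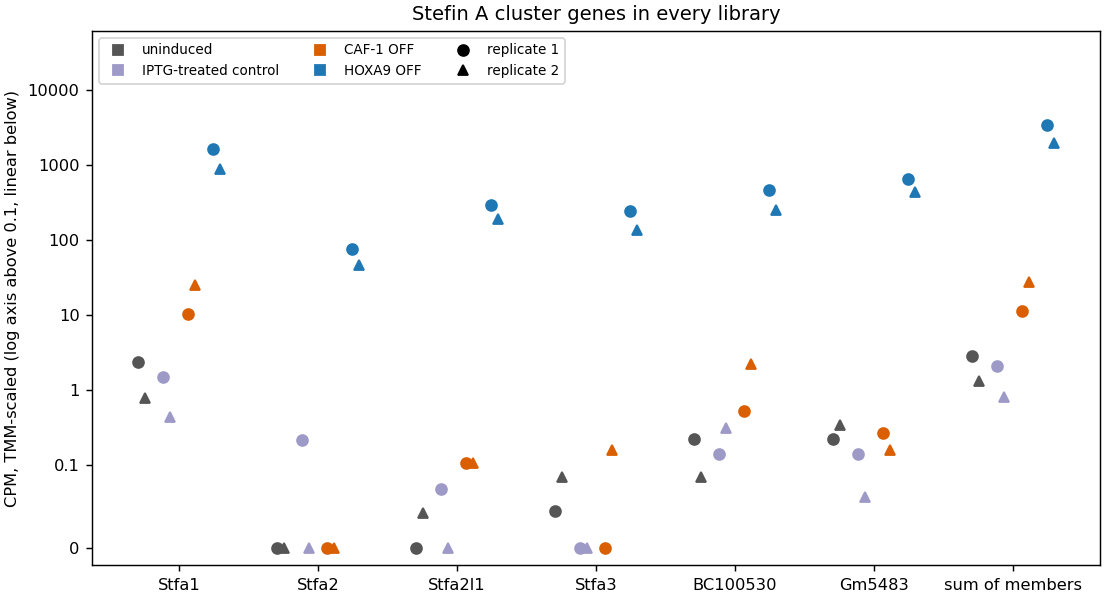
Level of each stefin A gene and of their sum in the 8 libraries, in TMM-scaled CPM on an axis that is logarithmic above 0.1 and linear below; colours mark groups and symbols replicates. All 6 genes are highest in the HOXA9 OFF libraries, and Stfa1 alone is above 10 CPM in both CAF-1 OFF libraries.

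Stfa1, a stefin A inhibitor of cysteine proteases, was the most abundant copy. Uninduced libraries had 53 and 18 counts, IPTG-treated controls 21 and 7, CAF-1 OFF libraries 197 and 475, and HOXA9 OFF libraries 29953 and 17591. The lowest CAF-1 OFF library, at 10.4 CPM, stood above the highest control library, at 2.36 CPM. The mean was 1250 ± 532 CPM (SD, n = 2) in HOXA9 OFF cells, and the pooled counts gave 795 times the uninduced level (exact 95% interval 631 to 1020, which like the other intervals here covers counting error only).

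Gm5483, another stefin-like copy, came next in abundance, with 12033 and 8763 counts in the HOXA9 OFF libraries. Uninduced libraries had 5 and 8 counts, IPTG-treated controls 2 and 1, and CAF-1 OFF libraries 5 and 3. Its 3 groups with active HOXA9 overlapped, apart from IPTG-treated control cells, which lay below both others. The HOXA9 OFF to uninduced ratio of pooled counts was 1900 (interval 1110 to 3570).

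BC100530, the near-copy of Stfa1, gave 5 and 2 counts in the uninduced libraries, with 2 and 5 for IPTG-treated controls, 10 and 42 for CAF-1 OFF, and 8577 and 4968 for HOXA9 OFF. Here too both CAF-1 OFF libraries, at 0.526 and 2.2 CPM, were above the 4 control libraries, whose highest was 0.307 CPM. In HOXA9 OFF cells pooled counts were 2300 times the uninduced level (interval 1120 to 5720).

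Stfa2l1 and Stfa2, the closely matched pair, were near 0 outside HOXA9 OFF cells. For Stfa2l1, uninduced libraries had 0 and 1 counts, IPTG-treated controls 1 and 0, CAF-1 OFF libraries 2 and 2, and HOXA9 OFF libraries 5400 and 3775. Stfa2 had no count in any uninduced or CAF-1 OFF library, 3 and 0 with IPTG in control cells, and 1373 and 940 after HOXA9 was switched off. Against a floor of 3 counts over the uninduced group, Stfa2 was at least 916-fold higher in HOXA9 OFF cells, and the Stfa2l1 ratio, resting on a single uninduced count, was 10900 (interval 1960 to 431000).

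Stfa3, whose transcript had no 50-base window in common with another protein-coding gene, is by that measure the copy with the least shared sequence. Uninduced libraries had 1 and 2 counts, IPTG-treated controls 0 in each, CAF-1 OFF libraries 0 and 3, and HOXA9 OFF libraries 4443 and 2721. The HOXA9 OFF to uninduced ratio was 2840 (interval 970 to 13800). Windows were compared for exact matches to protein-coding transcripts only, so pseudogenes and alignments with mismatches are not covered by that measure.

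By the study's thresholds, a false discovery rate (FDR) below 0.05 with 1.5-fold or more, 6 of 6 members were called higher in HOXA9 OFF than in uninduced cells, where 25.2% of the 13080 tested genes were called higher and 22.1% lower. Likewise 6 of 6 were called lower in CAF-1 OFF than in HOXA9 OFF cells, where 21.4% of genes were called lower and 22.2% higher. Nothing is read from these counts, since the HOXA9 OFF values were known when the members were chosen. All 6 genes also passed the filter on low counts through their HOXA9 OFF libraries: with only CAF-1 OFF and uninduced libraries in the fit, Stfa1 and BC100530 were kept, and with only CAF-1 OFF and control libraries given IPTG, Stfa1 was the sole member kept.

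Whether any of these genes was higher in CAF-1 OFF cells, with HOXA9 still active, was examined gene by gene as a difference between libraries. Stfa1 was called higher in CAF-1 OFF cells than in uninduced cells (log2 fold change 3.50 ± 0.65 SE, FDR 0.0135, edgeR quasi-likelihood test with Benjamini-Hochberg adjustment) and than in IPTG-treated control cells (log2 fold change 4.24 ± 0.76 SE, FDR 0.0134, edgeR). The ratio of pooled counts was 11.4 (interval 8.9 to 14.7) against uninduced cells and 19.2 (interval 13.1 to 29.1) against IPTG-treated control cells. Even so its pooled level was 0.0143 of that in HOXA9 OFF cells. With a library left out, the log2 fold change was 2.73 to 4.50 against uninduced and 3.47 to 5.31 against IPTG-treated control cells. These fits leave 1 library in a group and assume that it varies like the other groups. The FDR passed 0.05 without CAF-1 OFF replicate 2 (FDR 0.0923 against uninduced and 0.0831 against IPTG-treated control cells), without either uninduced library against that group (FDR 0.0634 and 0.0708), and without either IPTG-treated control library against that group (FDR 0.0629 and 0.0953). Calls over all genes fell in the same fits, for example from 1378 higher than uninduced to 252 without CAF-1 OFF replicate 2 and 138 without uninduced replicate 1.

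BC100530 had a log2 difference of 3.10 ± 1.00 SE from uninduced cells (FDR 0.064, edgeR) and was not called. Against IPTG-treated control cells no test is given for it, since it passed the filter there only through HOXA9 OFF cells. DESeq2 called it against uninduced cells (FDR 0.0146), as did the edgeR fit of those groups alone (FDR 0.0456). With 1 library left out, the log2 difference ranged from 1.74 without CAF-1 OFF replicate 2 (FDR 0.409, edgeR) to 3.89 without uninduced replicate 1 (FDR 0.18, edgeR). In all, 6 of 16 alternatives called it. It shared 21.9% of its windows with Stfa1, and reads from those were left out of the counts of both.

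For the other 4 members no test of CAF-1 OFF cells is given, since they passed the filter only through HOXA9 OFF cells, where they are high. Gm5483 had 5 and 3 counts in the CAF-1 OFF libraries. Its pooled ratio of CAF-1 OFF to uninduced counts was 0.74, with an interval of 0.266 to 1.93, and that to IPTG-treated control counts 2.13, with an interval of 0.511 to 12.5. Both intervals include 1, and the difference from Stfa1 was not tested. For Stfa2l1 and Stfa3, at 0 to 3 counts per library, a difference could not be resolved at this depth. No fold is given for Stfa2, which had no count in either CAF-1 OFF library and no more than 3 in any control library.

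One of 6 members was thus called higher in CAF-1 OFF cells than in uninduced cells, where 10.5% of all tested genes were called higher and 3.5% lower, and 1 of 6 against IPTG-treated control cells, where 9.56% were called higher and 3.2% lower. With only the compared groups fitted, 2 of the 2 members kept were called against uninduced cells and 1 of the 1 kept against IPTG-treated control cells. The list is too short to be read against those shares, and nothing is called particular to the stefin A genes from it. IPTG-treated control and uninduced cells differ in IPTG, in time and possibly in vector or clone, which cannot be told apart. Between them 0 of 13080 genes (0%) were called by edgeR, while 100 genes had an unadjusted p-value under 0.05 and DESeq2 called 5. None of these was a member, but with only these 2 groups fitted 1 member was kept by the filter, so the others entered through HOXA9 OFF.

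The make-up of the sum is described for each condition, without a test, since it uses the HOXA9 OFF values. Stfa1 made up 92.1% (Wilson 95% interval 87.6 to 95) and 90.5% (87.7 to 92.7) of the stefin A counts in the CAF-1 OFF libraries, but 48.5% (48.1 to 48.9) and 45.4% (44.9 to 45.9) in the HOXA9 OFF libraries. Gm5483 took 2.34% and 0.571% in CAF-1 OFF libraries and 19.5% and 22.6% in HOXA9 OFF libraries. In uninduced cells the Stfa1 share was 82.8% (71.8 to 90.1) and 58.1% (40.8 to 73.6), and in IPTG-treated control cells 72.4% (54.3 to 85.3) and 53.8% (29.1 to 76.8), on sums of 13 to 64 counts. The Stfa1 shares did not overlap between CAF-1 OFF and HOXA9 OFF cells. Their means differed by 44.3 percentage points.

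**Figure D2:**
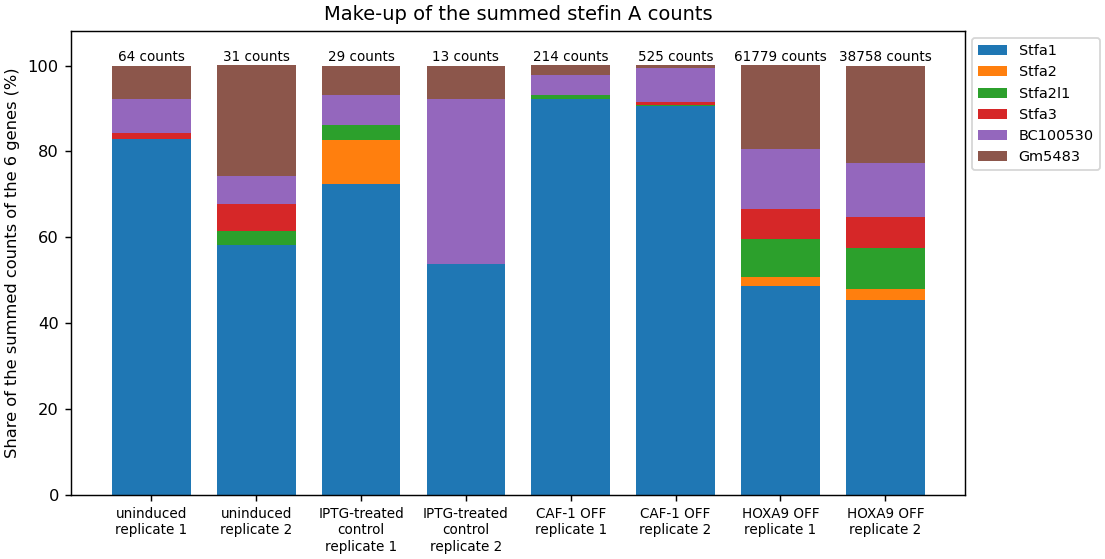
Share of each stefin A gene in the summed counts of the 6 genes, in percent, for each library, with the summed count above each bar. Stfa1 fills over 90% of the bar in both CAF-1 OFF libraries and under 50% in both HOXA9 OFF libraries, where Gm5483, BC100530, Stfa2l1 and Stfa3 take most of the rest.

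Within HOXA9 OFF cells the mean shares were 46.9% for Stfa1, 21% for Gm5483, 13.4% for BC100530, 9.24% for Stfa2l1, 7.11% for Stfa3 and 2.32% for Stfa2. The order of the 6 genes was the same in both libraries. Taken per kilobase of exon, which is needed to compare genes of different length, levels in replicates 1 and 2 were 3710 and 1990 CPM for Stfa1, 1580 and 1050 for Gm5483, 708 and 452 for Stfa2l1, 589 and 311 for BC100530, 585 and 328 for Stfa3 and 120 and 74.9 for Stfa2. On that scale BC100530 no longer stood above Stfa2l1. Stfa3 and BC100530 changed places between the replicates, so those neighbours do not differ beyond their spread. Per kilobase of unique windows the mean share of BC100530 was 9.24% and that of Stfa3 5.22%, while Stfa1 led with 51.5% and Stfa2 was lowest with 1.72%. On this scale the replicates disagreed on the order of BC100530 (9.63% and 8.86%) and Stfa2l1 (8.52% and 9.46%).

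The HOXA9 OFF libraries differed from each other, in opposite directions for different gene groups. Every member was higher in replicate 1, by 1.5-fold for Gm5483 to 1.89-fold for BC100530 and 1.74-fold for the sum. The 10 neutrophil markers were also higher in replicate 1, by 1.13-fold for Retnlg to 1.7-fold for Cxcr2, whereas 54.2% of all tested genes were higher there and 11.2% by more than 1.4-fold. Macrophage markers went the other way in 3 of 4 tested genes: Csf1r was at 465 CPM in replicate 1 and 853 CPM in replicate 2, Cd68 at 47.3 and 234 CPM, and C1qb at 0.434 and 121 CPM, while Emr1 was at 494 and 437 CPM. Of 8 tested proteases, 6 were higher in replicate 2. In CAF-1 OFF cells it was replicate 2 that was higher for Stfa1 and BC100530.

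Summed markers of maturing neutrophils, like the stefin A sum, were lowest in the control groups and highest in HOXA9 OFF cells. That stefin A sum was mostly Stfa1 in CAF-1 OFF cells, the 1 member called there with all libraries fitted. The summed level of these markers was 96 to 97.8 CPM in uninduced cells and 99.1 to 101 in IPTG-treated control cells. It was 1280 to 2220 in CAF-1 OFF cells and 6360 to 9380 in HOXA9 OFF cells. Against uninduced cells 10 of 10 were called higher in HOXA9 OFF (25.2% of all tested genes) and 7 of 10 in CAF-1 OFF cells (10.5% of all tested genes). Of these 7, Retnlg entered the test through HOXA9 OFF, where it was at 20.2 and 18 CPM. CAF-1 OFF libraries had 0.211 and 1.25 CPM of it. Mmp8, a neutrophil collagenase, made up 1090 and 1940 CPM of the CAF-1 OFF sums and was the 1 marker of the 10 called higher in CAF-1 OFF than in HOXA9 OFF cells (log2 1.70 ± 0.33 SE, FDR 0.00342, edgeR). Without it the other 9 markers summed to 39.5 and 52.6 CPM in uninduced, 192 and 286 CPM in CAF-1 OFF and 8830 and 5990 CPM in HOXA9 OFF cells, and for Ltf, the lactoferrin gene, CAF-1 OFF libraries had 0.474 and 0.523 CPM and HOXA9 OFF libraries 1440 and 969 CPM. Macrophage markers summed to 27.4 to 53.3 CPM in uninduced cells, 48.5 to 74.8 in CAF-1 OFF cells and 1010 to 1650 in HOXA9 OFF cells, where replicate 2 was the higher. The part of a changed cell make-up in the stefin A values was not tested. Keratinocytes are the other main site of stefin A, and Krt5, Krt14, Krt10 and Krt1 together reached at most 0.105 CPM, with 0 in both HOXA9 OFF libraries. Markers of T cells stayed at or under 0.298 CPM, those of the erythroid line at or under 2.14 CPM, and those of B cells were at 2.57 to 2.67 CPM in uninduced, 16.6 to 17.2 in CAF-1 OFF and 3.85 to 8.28 in HOXA9 OFF cells.

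The genes whose profile over the 8 libraries lay nearest to that of the sum were S100a9, S100a8, Camp, Chi3l3 and Cybb, with a root mean square difference of centred log2 CPM of 0.62, 0.67, 0.71, 0.86 and 0.92. S100a8 and S100a9 encode the calprotectin subunits, Camp the cathelicidin antimicrobial peptide, Chi3l3 a chitinase-like protein and Cybb the catalytic subunit of the phagocyte NADPH oxidase. S100a9 went from 0.935 and 0.856 CPM uninduced to 15 and 28.1 CPM under CAF-1 OFF and 1820 and 1130 CPM under HOXA9 OFF, with the same replicate higher in each treated group as for the stefin A sum. This likeness is a description over 8 libraries that fall into 4 groups, and it is mainly one to Stfa1, which dominates the sum: Stfa1 itself lay at 0.37 from the sum and BC100530 at 0.81, while Stfa2l1 (1.34), Stfa3 (1.39), Gm5483 (1.58) and Stfa2 (1.69) lay farther from it than the 5 genes named.

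**Figure D3:**
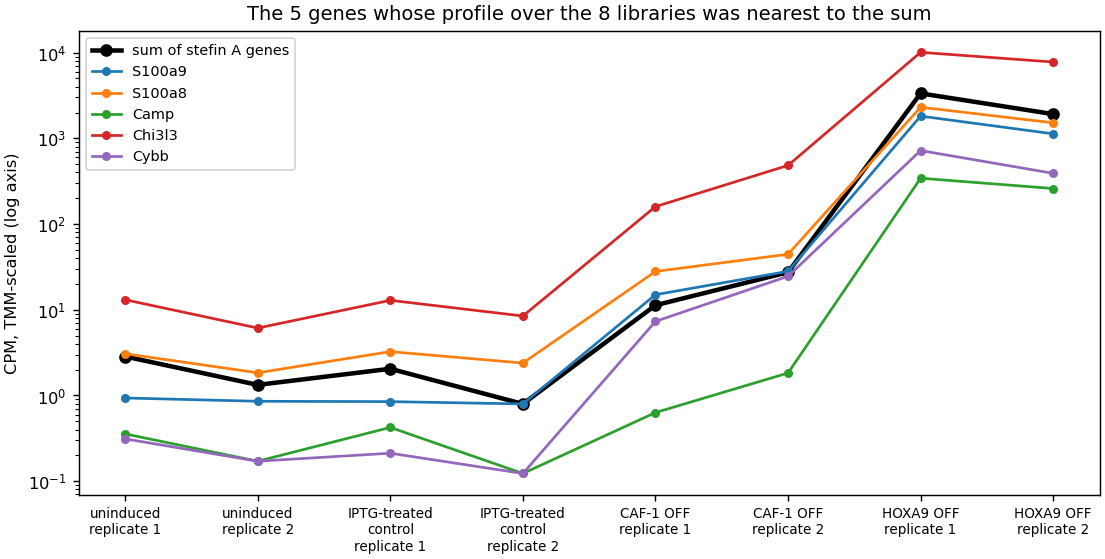
Levels of the stefin A sum and of the 5 genes nearest to it in profile, in TMM-scaled CPM on a log axis, in each library; lines join the values of a gene and carry no order in time. All 6 lines are low in the 4 control libraries, intermediate in CAF-1 OFF and highest in HOXA9 OFF libraries.

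Other genes lie between the members, some of them stefin-like. All 4 of those that were tested were called higher in HOXA9 OFF than in uninduced cells, where 25.2% of all tested genes were. These were 2010005H15Rik (101 and 84.1 CPM in HOXA9 OFF cells), Gm5416 (3.42 and 2.33 CPM), Gm1975 (7.71 and 4.22 CPM) and the antisense Gm15845 (0.76 and 0.595 CPM). Each was at 6 counts or fewer in every other library and so entered the test through its HOXA9 OFF counts, which makes that count of calls a description. At these counts no comparison of CAF-1 OFF with control cells is given for them. Gm1975 shares windows with Stfa1 and BC100530, and 2010005H15Rik with Gm5483, and reads from those were left out.

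On the flanks of the cluster, Csta, another stefin A gene proximal to Stfa2l1, had at most 3 counts in any library and Gm10092 had none, while Casr on the far side had 1 count in all. Of 10 genes within 200 kb outside the members' span, 7 were tested, and 3 were called higher and 2 lower in HOXA9 OFF than in uninduced cells. Over all tested genes 25.2% were called higher and 22.1% lower, so nothing is read from these counts. Parp9 (log2 1.88 ± 0.20 SE, FDR 0.000148, edgeR), a member of the ADP-ribosyltransferase family, was higher, as were Wdr5b (log2 0.97 ± 0.29 SE) and Cd86 (log2 2.83 ± 0.94 SE), which encodes a costimulatory ligand. Fam162a (log2 -0.86 ± 0.17 SE) and Ccdc58 (log2 -1.47 ± 0.13 SE), genes of mitochondrial proteins, were lower. Against uninduced cells only Parp9 of the 7 was called in CAF-1 OFF cells (log2 0.73 ± 0.20 SE, FDR 0.0363, edgeR). There 10.5% of all tested genes were called higher and 3.5% lower. Parp9 was also called against IPTG-treated control cells (log2 0.73 ± 0.20 SE, FDR 0.0422, edgeR). In that last comparison the noncoding Gm15564 was called lower (log2 -3.17 ± 0.72 SE, FDR 0.025, edgeR), with 777 and 149 CPM in the IPTG-treated controls and 52.9 and 49.7 CPM in the CAF-1 OFF libraries. Uninduced libraries had 60 and 45.3 CPM of it and HOXA9 OFF libraries 55.8 and 120 CPM. The 777 CPM is from replicate 1 of the IPTG-treated control, the library with 14.6% of its reads outside genes, and the gene was not called between IPTG-treated control and uninduced cells (log2 3.14 ± 0.71 SE, FDR 1, edgeR).

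**Figure D4:**
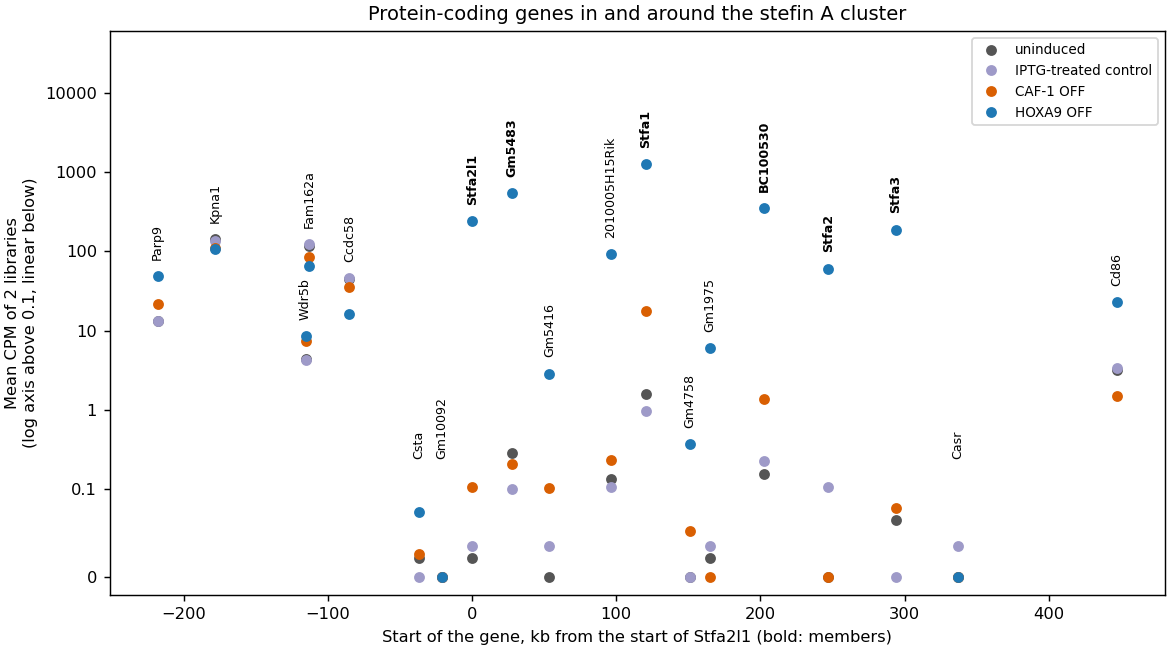
Mean CPM of the 2 libraries of each group for the protein-coding genes in and around the cluster, against the distance of each gene's lower end from that of Stfa2l1 in kb; the level axis is logarithmic above 0.1 and linear below, and members are in bold. The 6 members and 2010005H15Rik are high in HOXA9 OFF, while other genes between them are lower, among them Gm1975 (7.71 and 4.22 CPM), Gm5416 (3.42 and 2.33 CPM) and Gm4758 (0.488 and 0.248 CPM), and Csta, Gm10092 and Casr stay near 0 in every group.

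The wider family and lysosomal cysteine proteases were examined from lists of 21 other cystatins and 11 proteases, the latter papain-like cathepsins and legumain (Lgmn), which belongs to another protease family and is not a stefin target. Of 5 cystatins with enough counts, 4 were called higher and 1 lower in HOXA9 OFF than in uninduced cells. Of all tested genes 25.2% were called higher and 22.1% lower there. 2010005H15Rik and Gm5416 passed the filter only through HOXA9 OFF, since 3 cystatins were kept with that group out of the fit. The others higher were Cstb, the stefin B gene (log2 2.44 ± 0.41 SE, FDR 0.0016, edgeR), and Cst3, the secreted cystatin C (log2 1.42 ± 0.14 SE, FDR 0.000114, edgeR), while Cst7, the cystatin F gene, was lower (log2 -0.98 ± 0.15 SE, FDR 0.000977, edgeR). Uninduced libraries held 43.1 and 49.6 CPM of Cstb and HOXA9 OFF libraries 137 and 365 CPM, and here replicate 2 was the higher, unlike the stefin A genes. In CAF-1 OFF cells 0 of the 3 cystatins kept without HOXA9 OFF were called by edgeR against uninduced or IPTG-treated control cells, with none of them at an unadjusted p-value under 0.05 in either and none called by DESeq2.

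All 8 tested proteases were called higher in HOXA9 OFF than in uninduced cells, where 25.2% of all tested genes were, and 1 of the 8, Ctsh, entered the test through HOXA9 OFF. Cathepsin S (Ctss) had the largest log2 fold change, 7.79 ± 0.84 SE, and rose from 0.89 and 1.8 CPM to 150 and 452 CPM. Ctsh (4.76), Ctsb (3.67), Lgmn (3.40, the legumain gene), Ctsc (2.04), Ctsl (1.95), Ctsz (1.18) and Ctso (0.97) followed. The libraries were far apart for several of these: Lgmn stood at 18.1 and 306 CPM in HOXA9 OFF against 6.99 and 23.7 CPM in uninduced libraries, so replicate 1 lay within the uninduced range, and Ctsz at 538 and 1120 CPM against 353 and 382 CPM. Without HOXA9 OFF replicate 2, Lgmn (log2 0.24, FDR 0.795, edgeR) and Ctsz (log2 0.55, FDR 0.0483, edgeR, under 1.5-fold) were not called. With either uninduced library left out, 5 proteases were called. Ctsh was at 2.28 and 0.446 CPM in HOXA9 OFF. In CAF-1 OFF cells 1 of the 8 tested proteases was called with all libraries fitted, against uninduced and against IPTG-treated control cells. Of all tested genes 10.5% and 9.56% were called higher in these comparisons. With only the compared groups fitted, 7 proteases were kept, and 3 were called against uninduced cells: Ctsc, Ctsl and Ctss. That fit called 1579 of 12606 genes higher. Against IPTG-treated control cells 1 of the 7 kept was called, where 1517 of 12344 genes were called higher. The 1 called with all libraries was Ctsc, which encodes the protease that activates granule serine proteases. It was at log2 0.74 ± 0.11 SE (FDR 0.00798, edgeR) against uninduced and 0.77 ± 0.12 SE (FDR 0.00886, edgeR) against IPTG-treated control cells. Uninduced libraries held 107 and 112 CPM of Ctsc, IPTG-treated controls 115 and 101, CAF-1 OFF libraries 169 and 198, and HOXA9 OFF libraries 463 and 436. With 1 library left in a group, the log2 fold change of Ctsc was 0.63 (FDR 0.0688, edgeR) without CAF-1 OFF replicate 2 and 0.71 (FDR 0.0693) without uninduced replicate 1, both against uninduced cells, and 0.65 (FDR 0.0687) without CAF-1 OFF replicate 2 and 0.67 (FDR 0.0754) without IPTG-treated control replicate 2, both against IPTG-treated control cells. The last of these fits called 160 of all genes higher, against 1251 with every library.

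**Figure D5:**
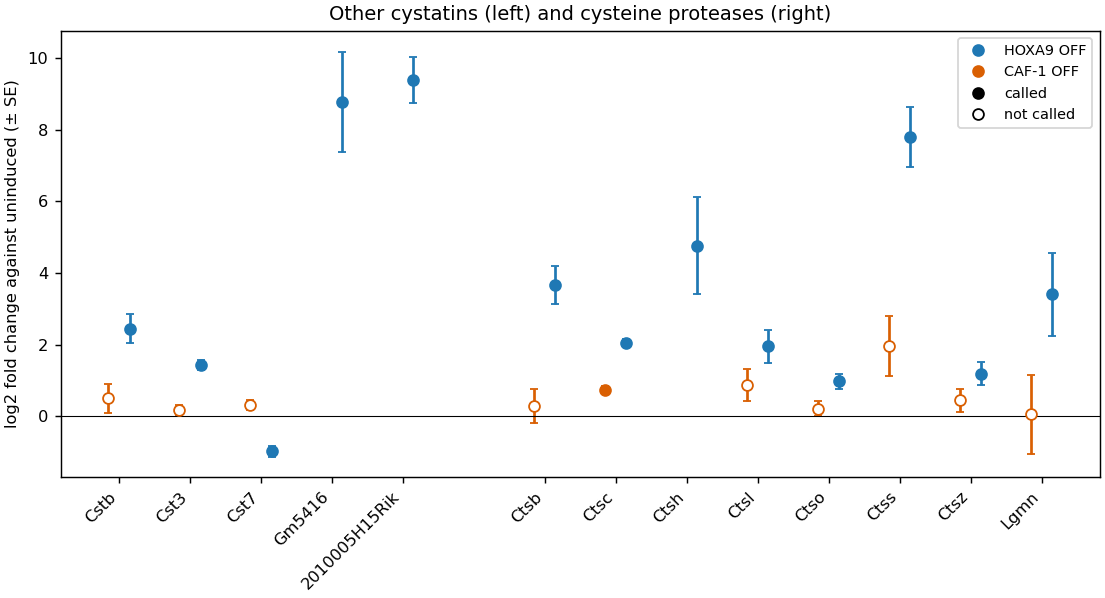
Log2 fold change against uninduced cells, with SE, of tested cystatins outside the members (left) and cysteine proteases (right) in HOXA9 OFF and CAF-1 OFF cells; filled points were called and open points were not. CAF-1 OFF points are left out for 2010005H15Rik, Gm5416 and Ctsh, which passed the filter only through HOXA9 OFF. Ctsc is the 1 gene filled in CAF-1 OFF, and Cst7 the 1 gene below 0 in HOXA9 OFF.

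The copies also resembled each other in front of their RefSeq start sites. The 200 bases before the start of 5 of the 6 members are given from RefSeq (GRCm38.p6, a later build than that of the counts), since these genes were all high in HOXA9 OFF cells; Gm5483 is listed there as Cstdc4. BC100530 was not matched. The RefSeq start of Stfa2 lies inside the span of that gene in GENCODE vM1, chr16:36404037-36421006 on the minus strand. Its stretch therefore does not precede the start of the GENCODE gene. Capitals mark GAGGAA or its reverse complement, a core that the myeloid factor PU.1 can bind.
Stfa1, chr16:36276948-36277147, plus strand: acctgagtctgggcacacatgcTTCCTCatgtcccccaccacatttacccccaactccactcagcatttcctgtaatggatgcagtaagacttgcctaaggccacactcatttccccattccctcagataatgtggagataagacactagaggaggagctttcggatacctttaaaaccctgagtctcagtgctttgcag
Stfa2, chr16:36408364-36408563, minus strand: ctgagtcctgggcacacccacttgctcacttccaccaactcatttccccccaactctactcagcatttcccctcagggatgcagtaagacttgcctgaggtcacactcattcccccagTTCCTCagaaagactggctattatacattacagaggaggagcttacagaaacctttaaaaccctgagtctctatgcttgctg
Stfa2l1, chr16:36156611-36156810, plus strand: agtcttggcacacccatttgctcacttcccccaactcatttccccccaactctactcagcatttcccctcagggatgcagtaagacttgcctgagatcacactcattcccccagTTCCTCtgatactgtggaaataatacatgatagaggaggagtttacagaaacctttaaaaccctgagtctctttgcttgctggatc
Stfa3, chr16:36455393-36455592, minus strand: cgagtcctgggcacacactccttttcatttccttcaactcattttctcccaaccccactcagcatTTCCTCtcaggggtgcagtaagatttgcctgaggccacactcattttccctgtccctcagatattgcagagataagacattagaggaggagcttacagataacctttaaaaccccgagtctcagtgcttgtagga
Gm5483, chr16:36184012-36184211, plus strand: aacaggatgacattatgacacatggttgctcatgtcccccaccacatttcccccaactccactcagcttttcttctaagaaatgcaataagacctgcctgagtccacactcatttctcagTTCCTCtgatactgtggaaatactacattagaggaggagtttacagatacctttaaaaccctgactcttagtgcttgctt
The 5 stretches were between 72.2% and 88.2% identical to each other. In the longer window of 250 bases before to 50 after the start, GAGGAA was present on either strand in 5 of 5 members and in 28.1% of 32544 promoters. The ETS core CCGGAA was in 0 of 5 (15% of all promoters) and the C/EBP pattern TTGCNNCAA in 0 of 5 (2.09%). GAGGAA and CCGGAA both end in GGAA, and other forms of an ETS site were not searched for, so no lack of ETS sites is shown. As copies of each other the 5 promoters are not independent. These matches describe letters and do not show binding.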

How the data were processed

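RNA of 8 samples was sequenced with a directional NEBNext kit. The authors aligned reads to mm9 with STAR and used HTSeq-count to count them by gene. What they deposited is a file of raw, unscaled counts for each library. Read length, annotation version and strand setting are not given in the sources used here. Members and lists were chosen with earlier results of these data known.

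Counts were fitted with edgeR 4.0.16 in R 4.3.3 (filterByExpr, TMM, a quasi-likelihood fit of all 8 libraries with a mean per group, Benjamini-Hochberg over 13080 genes). Calls used the study's thresholds, FDR under 0.05 with 1.5-fold. CPM used TMM-scaled sizes, and profiles a prior count of 2. Intervals of pooled ratios are exact and those of shares are Wilson intervals, at 95%. The biological coefficient of variation was 18.9%. Rows that name no gene were kept out of totals and tests; reads outside genes took 5.3% to 14.6% of the reads assigned, outside genes or ambiguous. Named were the members, called or abundant genes of the lists, neighbours within 200 kb, and the 5 genes nearest in profile.

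On simulated counts for CAF-1 OFF against uninduced cells (11048 genes, 200 changed), edgeR recovered 92% of changes of 2 and 58% of changes of 1 on the log2 scale, and called 20 unchanged genes. Alternatives were DESeq2 1.42.0, other scalings and filters, fits of only the compared groups, a replicate block, stricter thresholds and leaving out each library. Sequences came from GENCODE vM1 on mm9 and RefSeq. Figures used matplotlib 3.10.9.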

Additional observations from a re-analysis of the deposited data

How the results depend on the processing

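A fit with 1 library in a group assumes that it varies like the other groups. With 2 libraries per group, low counts limit all members but Stfa1 outside HOXA9 OFF cells. The number of members called in CAF-1 OFF against uninduced cells (1) was 2 with no filter on low counts, with DESeq2 and in a fit of only the compared groups, 0 at FDR under 0.01 with 2-fold, and from 0 to 2 when a library was left out. BC100530 was the added gene where 2 were called. Against IPTG-treated control cells it was 0 at the strict thresholds and from 0 to 1 with a library left out. The number of other cystatins called stayed within 1.5 times its value in each alternative run. The log2 ratio of the summed genes ranged, with a library left out, from 9.85 to 10.96 (HOXA9 OFF against uninduced), 2.43 to 3.87 (CAF-1 OFF against uninduced) and 2.98 to 4.6 (against IPTG-treated control). Scaling by library size alone moved the median of all genes in HOXA9 OFF against uninduced cells to -0.18, and the sum's log2 ratio to 10.12.

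For the proteases, calls lower in CAF-1 OFF than in HOXA9 OFF cells (5) were 3 by library size only, 8 with no filter, 3 at the strict thresholds and from 3 to 8 with a library left out. Against uninduced cells the CAF-1 OFF count (1) was 3 in a fit of only the compared groups, 0 at the strict thresholds and from 0 to 1 with a library left out; against IPTG-treated control cells (1) it was 0 at the strict thresholds and from 0 to 2. The HOXA9 OFF count (8) was 4 at the strict thresholds and from 5 to 8. The cause of these shifts was not tested. In HOXA9 OFF cells, shares per kilobase of exon were 1.71% for Stfa2, 10.2% for Stfa2l1, 7.91% for Stfa3, 7.76% for BC100530 and 23.3% for Gm5483. Per kilobase of unique windows they were 51.5% for Stfa1, 1.72% for Stfa2, 5.22% for Stfa3, 9.24% for BC100530 and 23.4% for Gm5483. Of all values recomputed under an alternative, 238 stayed within their limits and 44 moved.

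Same-numbered libraries deviated together in part. The correlation of deviations was 0.48 for uninduced with IPTG-treated control, 0.3 for uninduced with HOXA9 OFF and 0.32 for IPTG-treated control with HOXA9 OFF. CAF-1 OFF correlated at -0.04 with uninduced, -0.02 with IPTG-treated control and 0.08 with HOXA9 OFF. The numbers were not taken as pairs in the main fit. With the replicate number as a block, members called in CAF-1 OFF cells stayed at 1 against uninduced cells and 1 against IPTG-treated control cells, and proteases became 3 and 2.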
